A study of Mus musculus with 6 samples.

Results

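The clustered replication-dependent histone genes are the genes of the array whose symbol in the deposited annotation begins with Hist1h, Hist2h, Hist3h or Hist4h. The annotation holds 62 of them on 71 probe sets. Members were selected on signal level: log2 signal had to reach 5 on 3 or more of the 6 arrays, and where a gene had several such probe sets the one with the highest mean stood for it. This left 57 genes among 18238 genes tested: 4 of class H1, 14 of H2A, 17 of H2B, 10 of H3 and 12 of H4. Of the 57, 45 belong to Hist1, 8 to Hist2, 3 to Hist3 and 1 to Hist4, and Hist3h2bb-ps among them is annotated as a pseudogene by its symbol. The rule uses symbol and signal level, not the difference between treatments, and the family was taken up with earlier results of these data known.

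The kidneys came from male Balb/c mice aged 10 to 12 weeks. All underwent 26 min of ischemia of 1 kidney followed by reperfusion, with contralateral nephrectomy. The treated mice received 100 mg per kg body weight of m4PTB, known as an inhibitor of histone deacetylases, at 24 h after the injury. The other mice received the vehicle alone, 20% 2-(Hydroxypropyl)-b-cyclodextrin in water. Kidneys were harvested 12 h later, at day 1.5, and 3 m4PTB and 3 vehicle kidneys were measured on 1 array each. No uninjured kidney was among them, and the kidneys had been chosen for a like degree of injury by serum creatinine, blood urea nitrogen and Kim1 by qPCR.

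Replication-dependent histone genes supply the histones that package newly made DNA, and most of their mRNA is made during S phase. Transcription of the clusters depends on NPAT, a target of cyclin E with Cdk2. The mRNAs are not spliced and, as a rule, end in a stem-loop that is bound by SLBP in place of a poly(A) tail, and they are degraded when DNA synthesis stops. After ischemic injury, surviving tubule cells re-enter the cell cycle, which gives these genes a place in kidney repair. The labels describe biotinylated cRNA made from total RNA and do not say whether priming required a poly(A) tail, which bears on how fully stem-loop mRNAs are measured. Many of these genes have nearly identical coding sequences. The annotation marks 0 of the 71 probe sets as cross-hybridising, against 19 of all 35556 probe sets, yet both probe sets of Hist1h4m carried the same values on every array.

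The start regions below are shown because signal of most of the genes varied together across arrays. H2A and H2B genes are also often arranged head to head. A link between the start regions and the signal was not tested. The regions are RefSeq sequences of build GRCm38.p6, taken from before each annotated start. Each is written 5′ to 3′ on the gene's own strand. Capitals mark the CCAAT box (CCAAT or its reverse complement ATTGG), the TATA box TATAAA, the octamer ATTTGCAT of H2B promoters and the AAACACA box of H1 promoters. Matches were marked by sequence alone, whatever their distance from the start, so a marked TATAAA need not be a TATA box. The first pair are the H2B genes of largest difference. The Hist1h2bj region covers the 248 bases between its start and that of Hist1h2ag on the other strand. The H1 pair stands for genes of opposite sign, and the last pair for H3 and H4.
Hist1h2bb (H2bc3, chr13:23746584-23746733, plus strand): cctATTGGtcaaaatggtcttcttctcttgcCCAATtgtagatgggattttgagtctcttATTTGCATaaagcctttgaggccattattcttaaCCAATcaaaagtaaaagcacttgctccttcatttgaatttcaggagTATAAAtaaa
Hist2h2bb (H2bc18, chr3:96269550-96269699, plus strand): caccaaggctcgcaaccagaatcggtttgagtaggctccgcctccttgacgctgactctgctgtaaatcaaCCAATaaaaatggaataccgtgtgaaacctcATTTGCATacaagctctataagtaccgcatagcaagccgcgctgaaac
Hist1h2bj (H2bc11, chr13:22042948-22043197, plus strand): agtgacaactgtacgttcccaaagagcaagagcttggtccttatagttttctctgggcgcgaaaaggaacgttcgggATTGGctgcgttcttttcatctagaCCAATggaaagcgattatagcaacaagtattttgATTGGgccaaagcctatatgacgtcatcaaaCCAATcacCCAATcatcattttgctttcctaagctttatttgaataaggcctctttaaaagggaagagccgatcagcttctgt
Hist1h1b (H1f5, chr13:21780626-21780775, minus strand): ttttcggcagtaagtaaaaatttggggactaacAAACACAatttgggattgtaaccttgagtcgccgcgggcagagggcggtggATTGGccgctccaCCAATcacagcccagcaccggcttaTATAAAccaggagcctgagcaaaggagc
Hist1h1c (H1f2, chr13:23738657-23738806, plus strand): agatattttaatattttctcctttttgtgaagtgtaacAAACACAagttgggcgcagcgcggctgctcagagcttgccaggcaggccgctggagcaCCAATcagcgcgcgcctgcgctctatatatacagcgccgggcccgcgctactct
Hist1h3c (H3c3, chr13:23745522-23745671, minus strand): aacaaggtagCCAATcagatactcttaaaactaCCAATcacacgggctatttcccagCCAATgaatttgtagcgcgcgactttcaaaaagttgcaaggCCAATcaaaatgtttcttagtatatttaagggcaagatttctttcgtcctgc
Hist1h4b (H4c2, chr13:23756787-23756936, plus strand): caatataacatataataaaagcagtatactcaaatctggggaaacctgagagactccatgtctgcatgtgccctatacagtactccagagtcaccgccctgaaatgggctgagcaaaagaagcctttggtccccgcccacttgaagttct

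A RefSeq window was found for 52 of the 57 genes. Motifs were searched on both strands in the 250 bases before the start. CCAAT was present in 43 of 52 windows (82.7%), against 34.5% of 27025 windows of all genes. It was present in all 14 H2A, all 14 H2B and all 4 H1 windows, in 8 of 9 H3 windows and in 3 of 11 H4 windows. TATAAA was present in 24 of 52 windows (46.2%), against 13.0% of all windows. The octamer ATTTGCAT was present in 6 of 14 H2B and 5 of 14 H2A windows, against 1.61% of all windows, and windows of head-to-head genes overlap. AAACACA was present in 3 of 4 H1, 2 of 14 H2A and 2 of 14 H2B windows, against 6.22% of all windows. Hist1h1c and Hist1h1b, whose differences had opposite signs, both held AAACACA and CCAAT.

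Most clustered histone genes had higher mean signal in m4PTB kidneys than in vehicle kidneys, by small amounts and with no gene past the threshold. The log2 difference, m4PTB minus vehicle, was above 0 for 52 of 57 genes, against 54.5% of all genes tested, and its median was 0.28, against 0.01 over all genes tested. Many of the 57 have nearly identical coding sequences, so this count may rest on fewer separate measurements. Differences ran from -0.29 for Hist1h1c to 0.70 for Hist1h2bb, or from 0.820-fold to 1.62-fold. At an adjusted p under 0.05 (limma) there were 0 of the 57 genes and 0% of the 18238 genes tested, where 7.23% of all genes had an unadjusted p under 0.05. The adjusted p of the 57 genes lay between 0.679 and 0.962. At an unadjusted p under 0.05 there was 1 higher gene, Hist2h2bb (1.75%), and there were 2 lower genes, Hist1h1c and Hist1h4j (3.51%). Over all genes tested these shares were 4.67% for higher and 2.56% for lower genes, and nothing about the family is read from counts this small. With each array's median subtracted the all-gene shares were 2.42% and 5.83%. A larger amount of RNA per cell and more cells that hold it cannot be told apart in whole-kidney RNA.

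**Figure D1:**
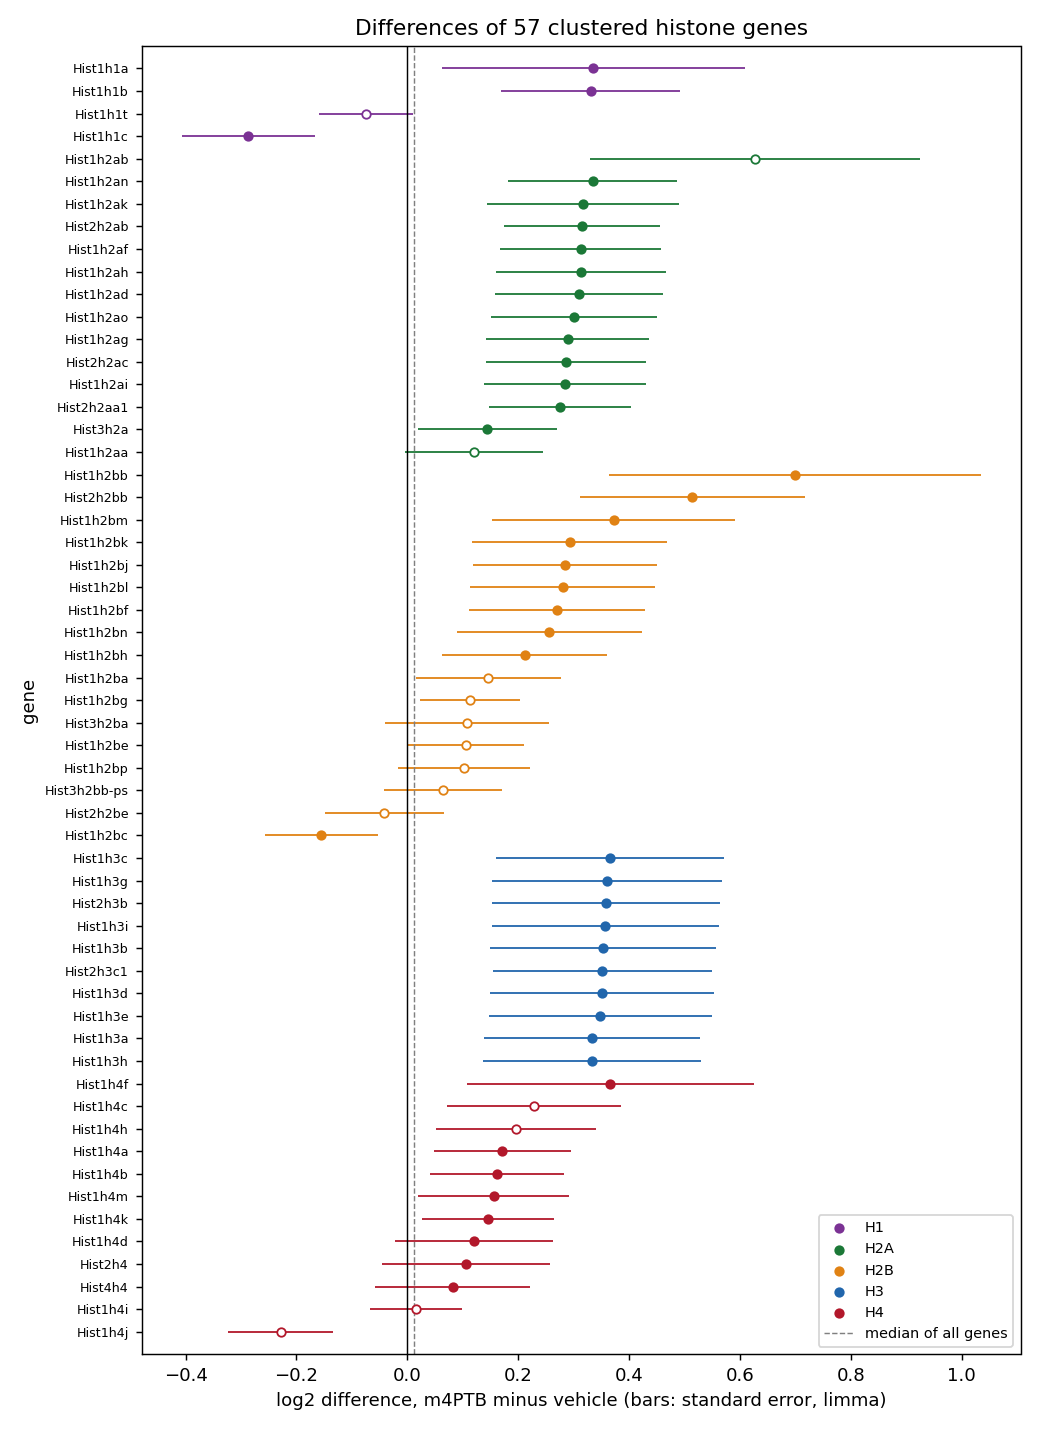
Log2 difference, m4PTB minus vehicle, of the 57 genes, with limma's standard error as bars and 1 colour per class. Filled points were above background, taken as the negative controls' 90th percentile, on 3 or more arrays, and open points were not. The dashed line is the median of all genes tested (0.01). Of the 57 points, 52 lie right of 0.

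In no histone gene did the groups separate. The 3 m4PTB values lay above all 3 vehicle values in 0 of 57 genes, against 9.38% of all genes tested, and below them in 0 of 57, against 5.21%. In most genes the overlap lay with 1 vehicle kidney. Signal on vehicle replicate 2 exceeded that on m4PTB replicate 3 in 54 of 57 genes, that on m4PTB replicate 2 in 51 and that on m4PTB replicate 1 in 7. Vehicle replicates 1 and 3 were both below every m4PTB array in 42 of 57 genes, against 17.6% of all genes tested. Vehicle replicate 2 was singled out after these values were seen, so all of these figures are a description. The array of highest signal was m4PTB replicate 1 in 49 genes, and that of lowest signal was vehicle replicate 3 in 27 and vehicle replicate 1 in 24. Apart from the 17.6%, counts by single array were not taken over all genes tested. How far they are particular to the histone genes was therefore not assessed. With each gene set to its mean over the 6 arrays, the median over the 57 genes was 0.31, 0.10 and -0.05 on m4PTB replicates 1, 2 and 3, against -0.27, 0.18 and -0.32 on vehicle replicates 1, 2 and 3.

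**Figure D2:**
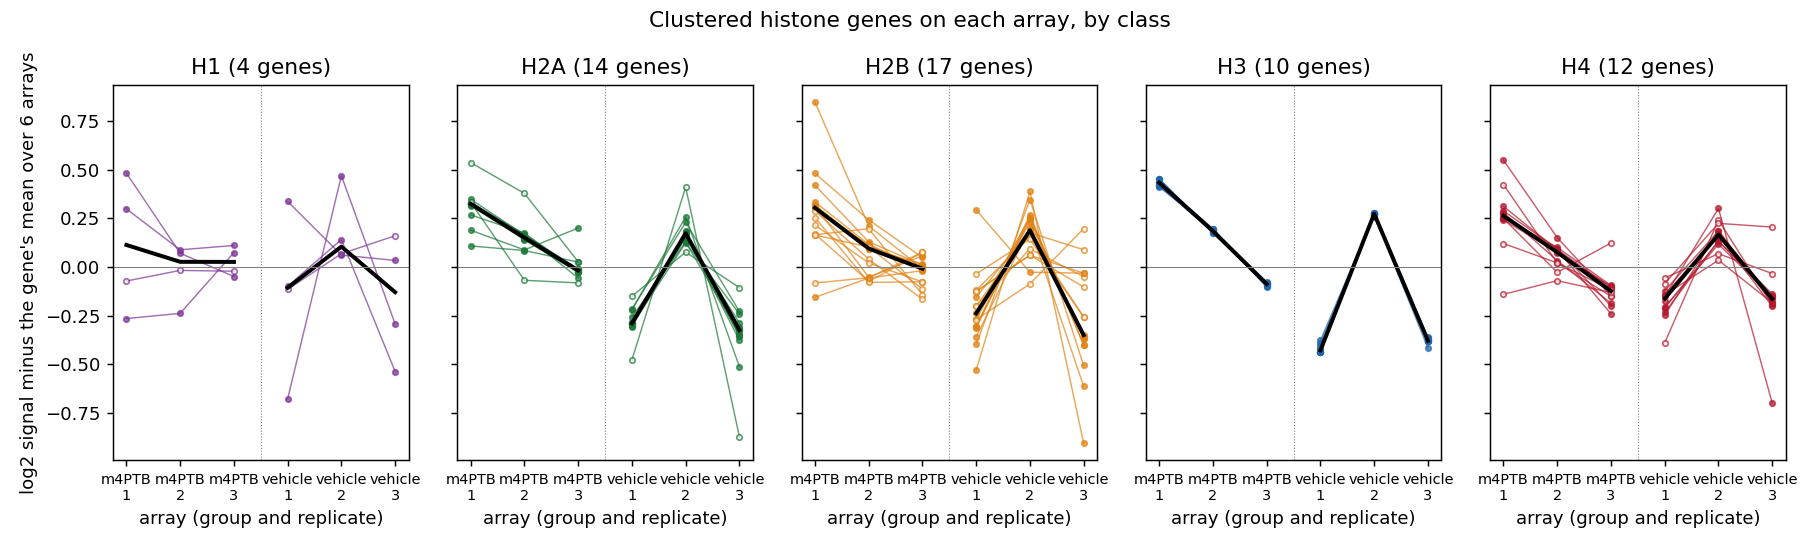
Log2 signal of each gene minus its mean over the 6 arrays, by class and array. Thin lines join the values of 1 gene within a group, open circles were below background, and the thick line is the class median. Vehicle replicate 2 lies among the m4PTB arrays in every class, with class medians from 0.10 to 0.27.

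The count of genes at an unadjusted p under 0.05 therefore turned on which kidney was counted. Without vehicle replicate 2 it was 38 of 57 higher and 0 lower, against 6.08% and 3.83% of all genes tested, and the median difference was 0.45. These values follow from the choice of the array that overlapped and support nothing beyond the description above. The smallest adjusted p among the 57 was then 0.178 by limma. Without vehicle replicate 3 there were 0 higher and 1 lower (4.3% and 1.99% of all genes tested), with a median of 0.17. Without m4PTB replicate 1 there were 0 and 0 (2.62% and 2% of all genes), with a median of 0.19, and without m4PTB replicate 2 also 0 and 0 (3.06% and 1.66%). Without vehicle replicate 1 there were 0 higher and 1 lower (5.07% and 3.83%), and without m4PTB replicate 3 there were 6 higher and 1 lower (3.8% and 2.1%).

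Background was taken as the negative controls' 90th percentile, 7.73 to 7.86 by array, and 43 of 57 histone genes exceeded it on 3 or more arrays, against 44.3% of all genes tested. The median SD of these 43 genes was 0.19 in m4PTB and 0.32 in vehicle kidneys (n = 3 each). Over all 8083 genes above that level it was 0.07 in m4PTB and 0.09 in vehicle kidneys. The median SD of 15 G2/M genes was 0.26 in m4PTB and 0.31 in vehicle kidneys, and that of 22 S phase genes was 0.14 in m4PTB and 0.26 in vehicle kidneys, so a wide spread was not particular to the histone genes. Of these 43 histone genes 41 had a difference above 0, against 66.0% of the 8083 genes, with a median of 0.31, against 0.04. The other 14 histone genes had a median of 0.11, with 11 above 0, and were below background on all 6 arrays.

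Class H1 holds the linker histones, which bind DNA between nucleosomes, and its members differed in sign. Hist1h1a (H1f1) signal was 9.25, 8.84 and 8.72 in m4PTB kidneys, against 8.09, 9.24 and 8.48 in vehicle kidneys. Vehicle replicate 2 was nearly as high as m4PTB replicate 1, and the difference was 0.34 (standard error 0.27). It was 0.08 without vehicle replicate 1, 0.18 without m4PTB replicate 1 and 0.65 without vehicle replicate 2. Hist1h1b (H1f5), a linker histone of dividing cells, was at 8.23, 8.02 and 8.04 in m4PTB kidneys, against 7.83, 8.07 and 7.40 in vehicle kidneys. Its difference was 0.33 (standard error 0.16, adjusted p = 0.685 by limma), and 0.14 without vehicle replicate 3, and the groups overlapped through vehicle replicate 2. Hist1h1c (H1f2), a linker histone also known to give polyadenylated mRNA in non-dividing cells, went the other way. Its signal was 8.98, 9.01 and 9.32 in m4PTB kidneys, against 9.58, 9.31 and 9.28 in vehicle kidneys. The groups overlapped through m4PTB replicate 3, and the difference was -0.29 (standard error 0.12, unadjusted p = 0.045, adjusted p = 0.685 by limma). It was -0.40 to -0.19 over the alternatives. Hist1h1t (H1f6), the linker histone of the testis, differed by -0.08 (standard error 0.08) and stayed below background on all 6 arrays. The H1 median of 0.13 rests on 4 genes. It was -0.04 without vehicle replicate 1, 0.06 without m4PTB replicate 1, 0.07 without vehicle replicate 3 and 0.21 without vehicle replicate 2.

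All 14 H2A genes had a difference above 0, with a median of 0.30 and a range of 0.12 to 0.63. The median was 0.46 without vehicle replicate 2. Hist1h2an (H2ac22) signal was 11.82, 11.64 and 11.47 in m4PTB kidneys, against 11.19, 11.64 and 11.10 in vehicle kidneys. Vehicle replicate 2 stood level with m4PTB replicate 2 and above replicate 3, and the difference was 0.33 (standard error 0.15, adjusted p = 0.685 by limma). For Hist1h2ak (H2ac15) the values were 9.39, 9.29 and 9.40 in m4PTB kidneys, against 8.98, 9.46 and 8.69 in vehicle kidneys. Vehicle replicate 2 was the highest of all 6, and the difference was 0.32 (standard error 0.17). Hist2h2aa1 (H2ac18), an H2A gene of the Hist2 cluster, was at 12.35, 12.26 and 12.06 in m4PTB kidneys, against 11.79, 12.21 and 11.84 in vehicle kidneys. Its difference was 0.28 (standard error 0.13), and its 4 probe sets gave 0.28 to 0.31. Hist1h2ab (H2ac4) had the largest difference of the class, 0.63 (standard error 0.30), but its signal was below background on every array. It was 6.11, 5.96 and 5.60 in m4PTB kidneys, against 5.10, 5.99 and 4.71 in vehicle kidneys. Hist1h2aa (H2ac1), the testis H2A, had the smallest difference, 0.12 (standard error 0.12), also below background on every array, and was at -0.02 without m4PTB replicate 1.

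Class H2B had the widest range, from -0.16 to 0.70, with a median of 0.21 and 15 of 17 genes above 0. The median was 0.11 without m4PTB replicate 1, 0.12 without vehicle replicate 3 and 0.36 without vehicle replicate 2. Hist1h2bb (H2bc3) signal was 9.94, 9.30 and 9.09 in m4PTB kidneys, against 8.56, 9.48 and 8.19 in vehicle kidneys. Vehicle replicate 2 lay between m4PTB replicates 1 and 2, and the difference was 0.70 (standard error 0.34, adjusted p = 0.685 by limma). It was 0.42 without vehicle replicate 3, 0.45 without m4PTB replicate 1 and 1.07 without vehicle replicate 2. Hist2h2bb (H2bc18) was at 8.50, 8.27 and 8.07 in m4PTB kidneys, against 7.66, 8.23 and 7.41 in vehicle kidneys. It had the smallest p of the family, at a difference of 0.51 (standard error 0.20, unadjusted p = 0.0358 and adjusted p = 0.679 by limma). Hist1h2bm (H2bc14) was at 9.69, 9.40 and 9.28 in m4PTB kidneys, against 8.87, 9.62 and 8.77 in vehicle kidneys, a difference of 0.37 (standard error 0.22). For Hist1h2bj (H2bc11) the values were 11.67, 11.45 and 11.37 in m4PTB kidneys, against 11.05, 11.60 and 10.99 in vehicle kidneys, a difference of 0.28 (standard error 0.17). In both genes vehicle replicate 2 exceeded m4PTB replicates 2 and 3.

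The remaining H2B differences reached below 0 in 2 genes. Hist2h2be (H2bc21) differed by -0.04 (standard error 0.11), was below background on every array, and was at 0.04 without vehicle replicate 2. Hist1h2bc (H2bc4), an H2B gene also known to give polyadenylated mRNA in non-dividing cells, was singled out after its values were seen. It was at 11.13, 11.23 and 11.27 in m4PTB kidneys, against 11.58, 11.26 and 11.26 in vehicle kidneys. Its difference was -0.16 (standard error 0.10, adjusted p = 0.705 by limma), with vehicle replicate 1 apart from 5 arrays between 11.13 and 11.27. A second probe set of this gene, which did not reach the signal minimum, differed by -0.18. Of the 2 histone genes above background whose difference was below 0, Hist1h2bc was 1 and Hist1h1c the other, and in both vehicle replicate 1 was highest. Which other members give polyadenylated mRNA was not assessed, and a link between that trait and the sign of the difference was not tested.

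Head-to-head arrangement allowed H2A and H2B genes with 1 shared start region to be set side by side. Pairs were sought only among the 52 genes with a RefSeq window, and only where the starts lay close together. This left out, among others, Hist2h2be and Hist1h2bc, the 2 H2B genes with a difference below 0. The search found 7 pairs, all on chromosome 13, with 163 to 280 bases between the starts. Hist1h2ag and Hist1h2bj, whose shared region is printed above, differed by 0.29 and 0.28. The pair Hist1h2ai and Hist1h2bl gave 0.29 and 0.28, the pair Hist1h2ah and Hist1h2bk 0.31 and 0.29, the pair Hist1h2ad and Hist1h2bf 0.31 and 0.27, and the pair Hist1h2ak and Hist1h2bn 0.32 and 0.26. In these 5 pairs both genes were above background on all 6 arrays. The pair Hist1h2an and Hist1h2bp gave 0.33 and 0.10, where Hist1h2bp was below background on every array. The testis pair Hist1h2aa and Hist1h2ba gave 0.12 and 0.15, with both genes below background. The values are given for the pairs without a test. Like values were also found in H2A genes that the search left unpaired, with 0.31 for Hist1h2af, 0.30 for Hist1h2ao and 0.29 for Hist2h2ac. Whether these have a partner among the genes without a window, such as Hist2h2be at -0.04, was not assessed. Of other H2A genes left unpaired, Hist3h2a differed by 0.14 and Hist1h2ab by 0.63. Near-equal values were thus not particular to the pairs found, and how far the probes measure each other's mRNA was not tested.

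The H3 genes behaved as a single measurement. Hist1h3c (H3c3) signal was 12.46, 12.20 and 11.94 in m4PTB kidneys, against 11.58, 12.29 and 11.63 in vehicle kidneys. Vehicle replicate 2 stood above m4PTB replicates 2 and 3, and the difference was 0.37 (standard error 0.21, adjusted p = 0.692 by limma). Hist1h3g (H3c8), Hist2h3b (H3c13), Hist1h3b (H3c2) and Hist1h3h (H3c10) differed by 0.36, 0.36, 0.35 and 0.33, each with a standard error of 0.20 to 0.21. Over all 10 genes the differences lay between 0.33 and 0.37. Their median of 0.35 was 0.22 without m4PTB replicate 1, 0.23 without vehicle replicate 1 and 0.58 without vehicle replicate 2. Once each gene was set to its own mean, the 10 genes lay within 0.06 of each other on every array, and 9 of 10 put the 6 arrays in the same order. Most of these genes encode identical or nearly identical H3 proteins, and how far their probes measure each other's mRNA was not tested. A second probe set of Hist1h3d, not the one used, differed by -0.04.

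Class H4 had a median of 0.15, with 11 of 12 genes above 0. The median was 0.05 without m4PTB replicate 1, 0.08 without vehicle replicate 1, and 0.25 without m4PTB replicate 3 or without vehicle replicate 2. Hist1h4f (H4c6) signal was 8.99, 8.59 and 8.29 in m4PTB kidneys, against 8.29, 8.74 and 7.74 in vehicle kidneys. Its difference was 0.37 (standard error 0.26, adjusted p = 0.714 by limma), and it was 0.11 without vehicle replicate 3, 0.18 without m4PTB replicate 1 and 0.61 without vehicle replicate 2. Hist1h4b (H4c2) was at 12.32, 12.13 and 11.95 in m4PTB kidneys, against 11.85, 12.17 and 11.90 in vehicle kidneys, a difference of 0.16 (standard error 0.12). Both genes showed vehicle replicate 2 above m4PTB replicate 2. Hist1h4c (H4c3) differed by 0.23 (standard error 0.16), and Hist1h4i (H4c9) by 0.02 (standard error 0.08), a value that was -0.04 with each array's median subtracted. Hist1h4j (H4c11) was at 5.56, 5.63 and 5.57 in m4PTB kidneys, against 5.62, 5.93 and 5.91 in vehicle kidneys. Its difference was -0.23 (standard error 0.10, unadjusted p = 0.0438, adjusted p = 0.685 by limma), and the groups overlapped through vehicle replicate 1. Hist1h4c, Hist1h4i and Hist1h4j were below background on all 6 arrays.

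**Figure D3:**
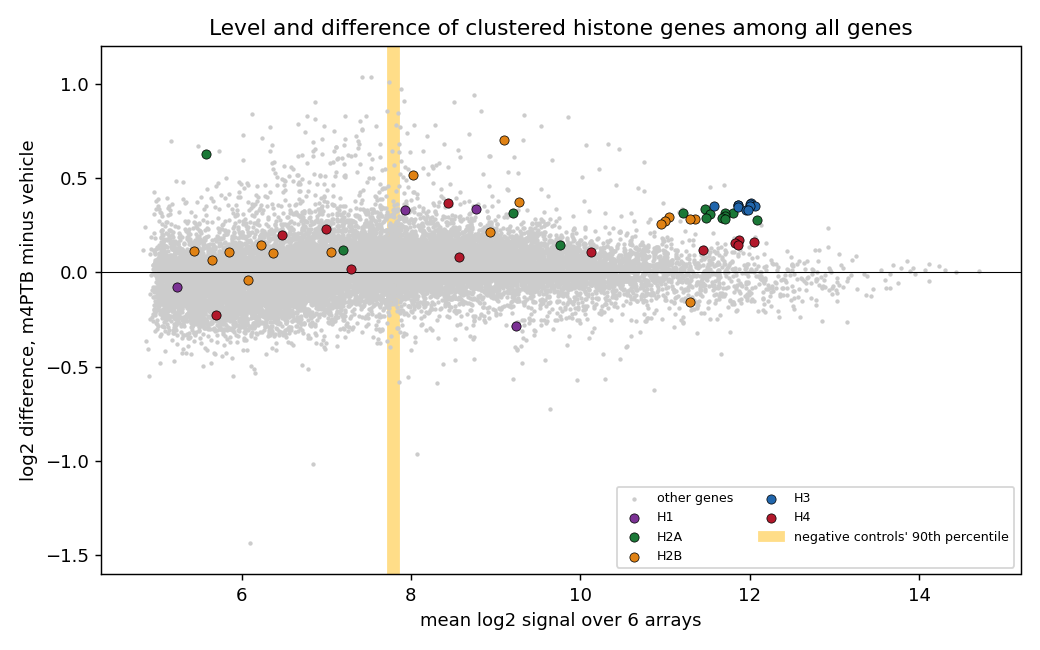
Mean log2 signal over the 6 arrays (horizontal axis) and log2 difference, m4PTB minus vehicle (vertical axis), of all genes tested, with the histone genes coloured by class. The shaded band is the range of background over the 6 arrays, 7.73 to 7.86. Of the 43 histone genes above background on 3 or more arrays, 41 lie above 0.

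By cluster, the median difference was 0.29 over 45 Hist1 genes, 0.30 over 8 Hist2 genes and 0.11 over 3 Hist3 genes, and the single Hist4 gene, Hist4h4, differed by 0.08. At the edge of the signal minimum, Hist1h2ab passed on 5 of 6 arrays and the other 56 genes passed on all 6, the lowest mean being 5.24 for Hist1h1t. The 5 genes that did not pass were Hist1h1d, Hist1h2ac, Hist1h2ae, Hist1h3f and Hist2h3c2-ps. The first 4 differed by 0.21, 0.03, 0.15 and 0.05, with no value of at least 5 on any array. Hist2h3c2-ps, an H3 locus that RefSeq now names H3c15, was at 4.68, 5.22 and 5.64 in m4PTB kidneys, against 4.09, 4.09 and 4.21 in vehicle kidneys, a difference of 1.05. It passed the minimum on 2 arrays and lay below the median of the negative controls of the same array on all of them, so it is given as a description only.

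Replacement variants are histone genes outside this family that are used throughout the cell cycle or for special tasks. Of 11 measured, 7 had a difference above 0, with a median of 0.05 that was -0.0049 with each array's median subtracted. None had an adjusted p under 0.05 by limma, and at an unadjusted p under 0.05 there were 3 higher and 0 lower, against 4.67% and 2.56% of all genes tested. H2ax (H2A.X), phosphorylated at DNA breaks, was at 8.06, 7.93 and 7.90 in m4PTB kidneys, against 7.49, 7.74 and 7.29 in vehicle kidneys. The groups did not overlap, and the difference was 0.46 (standard error 0.12, adjusted p = 0.587 by limma). Cenpa, the H3 variant of centromeres, differed by 0.28 (standard error 0.10), also without overlap. H2az1 (H2A.Z), a variant found at promoters, differed by 0.30 (standard error 0.12), with vehicle replicate 2 above m4PTB replicate 3. H1f0, the linker histone of resting cells, was at 9.75, 9.80 and 9.78 in m4PTB kidneys, against 10.06, 9.88 and 9.85 in vehicle kidneys. Its difference was -0.16 (standard error 0.08), and the m4PTB values lay below all vehicle values.

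Factors that transcribe the clusters and process their mRNA had a median of 0.12 over 20 genes, with 16 above 0, 2 higher and 0 lower at an unadjusted p under 0.05 (4.67% and 2.56% of all genes), and 0 at an adjusted p under 0.05 by limma. Slbp, the stem-loop binding protein, was at 7.75, 7.47 and 7.54 in m4PTB kidneys, against 7.50, 7.43 and 7.06 in vehicle kidneys. Its difference was 0.26 (standard error 0.13), and 0.07 when all its probe sets were averaged. Npat differed by 0.17 (standard error 0.09), and Casp8ap2 (FLASH), which works in histone mRNA processing, by 0.19 (standard error 0.07), both without overlap of the groups. Ccne2, a cyclin E gene, was at 7.13, 6.73 and 6.75 in m4PTB kidneys, against 6.19, 6.81 and 5.93 in vehicle kidneys. Vehicle replicate 2 again lay between the m4PTB values, and the difference was 0.56 (standard error 0.22). Slbp, Casp8ap2 and Ccne2 were below background on all 6 arrays.

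Histone chaperones and assembly factors had a median of 0.16 over 21 genes, with 19 above 0, 5 higher and 0 lower at an unadjusted p under 0.05 (4.67% and 2.56% of all genes), and 0 at an adjusted p under 0.05 by limma. The median was 0.04 without vehicle replicate 3. Hjurp, the chaperone that loads Cenpa, differed by 0.47 (standard error 0.14), and Asf1a, a chaperone of H3 with H4, by 0.22 (standard error 0.14). Chaf1a and Chaf1b, subunits of the factor that deposits new histones behind the fork, differed by 0.34 and 0.52. In 6 of the 21 genes the m4PTB values lay above all vehicle values, against 9.38% of all genes tested.

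Genes of DNA replication, which histone synthesis accompanies, were set beside the family as a list of 22, all with a difference above 0 and with a median of 0.39, 16 higher at an unadjusted p under 0.05 (4.67% of all genes) and 0 at an adjusted p under 0.05 by limma. In 8 of the 22 the groups did not overlap, against 9.38% of all genes tested. Vehicle replicate 2 exceeded m4PTB replicate 3 in 11 of the 22 and m4PTB replicate 2 in 1, where among the histone genes these counts were 54 and 51 of 57. Pcna, the replication clamp, was at 10.68, 10.47 and 10.32 in m4PTB kidneys, against 9.80, 10.29 and 9.75 in vehicle kidneys, a difference of 0.55 (standard error 0.16). Mcm6, a subunit of the replicative helicase, differed by 0.68 and Pole, the catalytic subunit of DNA polymerase epsilon, by 0.72. Of 15 G2/M genes 14 separated the groups (9.38% of all genes), with a median of 0.68, all 15 higher at an unadjusted p under 0.05 (4.67% of all genes) and 0 at an adjusted p under 0.05. Vehicle replicate 2 exceeded m4PTB replicate 3 in 1 of the 15. Mki67, a marker of cycling cells, was at 10.35, 10.38 and 10.08 in m4PTB kidneys, against 9.49, 9.94 and 8.92 in vehicle kidneys. Vehicle replicate 2 was singled out on the values of the histone genes, so the counts on that array are a description only. The difference in overlap between these lists and the histone genes was not tested.

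**Figure D4:**
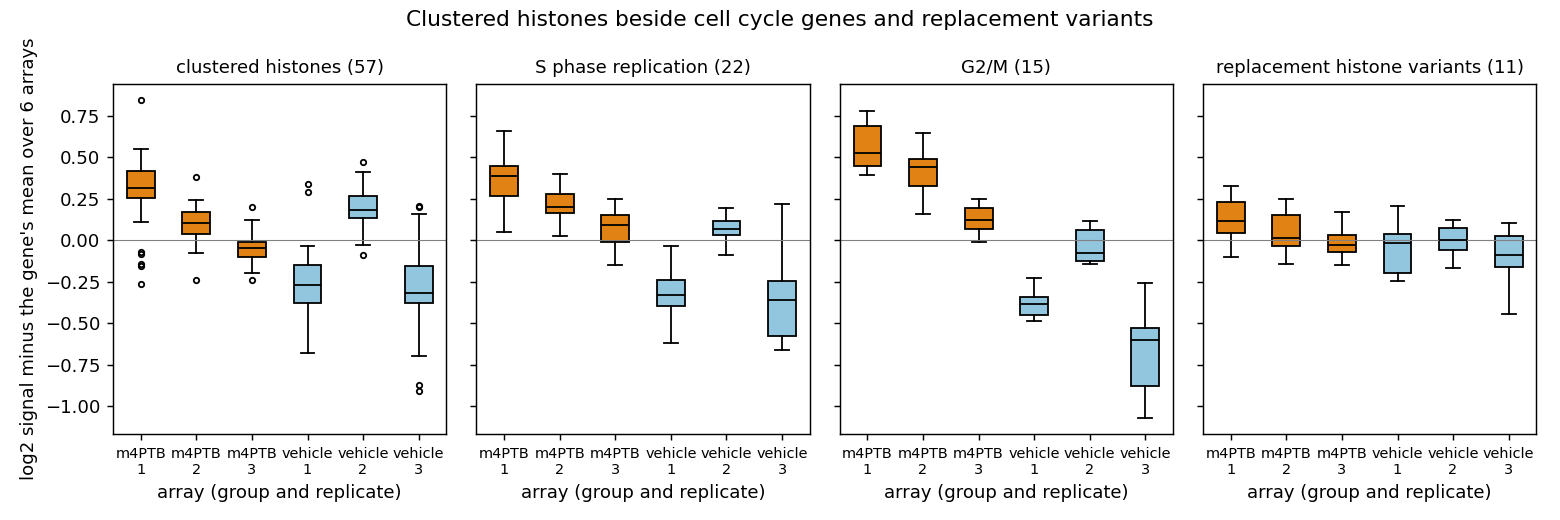
Log2 signal minus each gene's mean over the 6 arrays, as boxes over genes (box: quartiles, line: median, whiskers: 1.5 times the box, points: values beyond), for 57 clustered histone genes, 22 S phase genes, 15 G2/M genes and 11 replacement variants. The median on vehicle replicate 2 is 0.18 for the histone genes, 0.07 for S phase, -0.08 for G2/M and 0.00172 for the variants. That array was singled out on the values of the histone genes.

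Havcr1 (Kim1), the injury marker used to choose kidneys, was at 11.97, 11.67 and 11.54 in m4PTB kidneys, against 11.61, 12.03 and 11.50 in vehicle kidneys. Vehicle replicate 2 and m4PTB replicate 1 were thus highest for Havcr1, as they were for most histone genes, and its part in the result was not tested. Lcn2 (NGAL) was at 11.26, 10.63 and 10.46 in m4PTB kidneys, against 10.44, 10.58 and 9.35 in vehicle kidneys. Kidney markers were present, with Lrp2 at 12.86 to 13.00, Umod at 12.92 to 13.12 and Aqp2 at 9.69 to 10.09. Macrophage markers were above 0 in 5 of 5 genes, with a median difference of 0.18 and 0 separating the groups. All 5 measured markers of neutrophils and of T and NK cells, and the 1 measured marker of B cells, were below background on every array. Endothelial markers were above 0 in 3 of 3, against 54.5% of all genes tested. Pecam1 separated the groups (9.38% of all genes tested) with a difference of 0.35. Cdh5 and Kdr differed by 0.19 and 0.02, with overlap. The part of these cells in the result was not tested. Vehicle replicate 3 stood apart from the other arrays, with a mean correlation of 0.987 with them, against 0.993 to 0.994, and values without it are given above.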

How the data were processed

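Total RNA of whole kidneys (10 ug per sample) was measured on Affymetrix gene arrays. What was deposited is 1 log2 signal for each probe set and array. The submitters' processing notes name RMA and Affymetrix Expression Console 1.1 as the authors' tools. RMA makes the arrays share 1 distribution of probe values, so a shift of most genes 1 way may not be seen. The gene values still differed somewhat between arrays. The median over all genes tested was 7.45 on vehicle replicate 3 and 7.50 to 7.55 on the other arrays. The deposited annotation cites build NCBIM37, and start regions come from RefSeq's GRCm38.p6, matched by accession. Another deposited table gave the symbols, and its 6 signal columns match no sample's labels and were not used.

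Probe sets that carried 1 symbol and reached a log2 signal of 5 on 3 or more arrays entered the fit, 1 for each gene by highest mean. The negative controls (5222 probe sets) had medians of 5.56 to 5.95 and 90th percentiles of 7.73 to 7.86. The 3 m4PTB and 3 vehicle arrays, grouped by sample title, were compared with limma 3.58.1 in R 4.3.3, without covariates, with Benjamini-Hochberg adjustment over 18238 genes and a threshold of 0.05. The labels do not say that replicates are more than separate samples, so p-values reflect only how these samples spread, perhaps in part for technical reasons, and the number of arrays limits precision. An exact permutation test of 3 against 3 arrays cannot go below p = 0.1, and the 57 genes reached 0.2 at best.

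Named members were, per class, the 3 of largest absolute difference, that of smallest absolute difference and that of highest mean signal. Other lists gave their 3 genes of smallest p and their first gene, not all of which are reported here. Alternatives were another scaling, other filters, other probe set choices, other variance models, array weights, a replicate block and leaving out each array. The steps were tested on simulated data. Members and lists were chosen with earlier results of these data known.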

Additional observations from a re-analysis of the deposited data

How the results depend on the processing

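No gene passed an adjusted p under 0.05 by limma under any of the 15 alternatives. The median difference of the histone genes stayed above 0 in all of them, at 0.13 with array weights, 0.23 with each array's median subtracted, 0.31 with genes below background left out (43 remaining), and 0.17 to 0.45 with 1 array left out. The median over all genes was -0.05 with each array's median subtracted. The cause of these shifts was not tested. The count of histone genes at an unadjusted p under 0.05, which was 1 higher and 2 lower, depended on the setting. With the share of all genes tested under the same setting in parentheses, higher genes numbered 0 with each array's median subtracted (2.42%), 0 with array weights (5.9%), 2 without a filter on signal (4.12%), 2 with genes below background left out (6.83%), 2 with all probe sets counted singly (4.51%) and 9 with trended and robust variances (5.52%). Lower genes numbered 1 after cyclic loess (3.74%), 1 with genes below background left out (2.72%) and 1 with trended and robust variances (2.53%). With 1 array left out, higher genes numbered 0 to 38 and lower genes 0 to 1.

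With the replicate number as a block there were 5 higher and 1 lower, against 3.93% and 2.13% of all genes tested. The deviations of same-numbered arrays from their group means correlated at -0.13, -0.05 and -0.08 across genes. Those of differently numbered arrays correlated at -0.04 to 0.15. Such correlations cannot show whether same-numbered arrays were handled together, and the labels do not state that the numbers pair animals. Signal limits what the 14 histone genes below background (the negative controls' 90th percentile) can show.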
